A study of Mus musculus with 10 samples.

Results

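The transcriptomes of wild-type J1 mouse embryonic stem cells (ESCs) were compared between the naïve and the primed state of pluripotency, to find which transcription factors, metabolic, adhesion and signalling genes separate these states. The comparison used 4 of the 10 RNA-sequencing libraries of the series, 2 of naïve ESCs (J1) and 2 of primed ESCs (PJ1). Both carried the wild-type genotype. The naïve ESCs were grown on gelatin in DMEM with 15% FBS, 1000 U/ml LIF and the inhibitors PD0325901 (1 µM) and CHIR99021 (3 µM), which act on MEK and GSK3. The primed ESCs were grown on Matrigel in DMEM/F12 with 20% KnockOut serum replacement, 10 ng/ml bFGF and 20 ng/ml Activin. State and medium changed together and cannot be told apart in this comparison. Every component that differs (serum, LIF, both inhibitors, matrix and growth factors) differs between the states and is the same in both libraries of a state. Each state is represented by a single line, and the records do not say whether its 2 libraries came from separate cultures, so p-values measure the spread between libraries. The other 6 libraries came from J1 lines with a knockout of Prkaa1, which encodes a catalytic subunit of AMPK (AKO), of Gys1 (GKO) or of both (DKO). These libraries served for the estimate of spread and as a range against which the primed values were set.

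Naïve ESCs correspond to the epiblast of the blastocyst before implantation, and primed ESCs to the epiblast after implantation. LIF, acting through STAT3, and the block of MEK and GSK3 hold a network of transcription factors that includes Esrrb, Klf2, Klf4, Tfcp2l1 and Nanog. When the network is taken down, cells pass through a formative stage marked by Otx2 and come to depend on FGF and Activin, while Oct4 (Pou5f1) and Sox2 are kept in both states.

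Expression is given in TPM, a relative abundance within a library that allows for the length of each transcript. Of 21853 genes listed, the 12060 with at least 1 TPM in at least 2 of the 10 libraries were tested, and log2 changes are primed minus naïve on the log2(TPM + 1) scale, with their standard error. The naïve libraries held 10538 and 10545 genes at 1 TPM or more and the primed libraries 11113 and 11092. Summed over all genes listed, TPM came to 578066 and 565209 in the naïve libraries and to 512120 and 500162 in the primed libraries. The Y-linked genes Ddx3y, Eif2s3y, Uty and Uba1y were listed at 0 in the naïve, primed and AKO libraries but not in the GKO and DKO libraries. The cause was not tested, and the GKO and DKO libraries enter both the estimate of spread and the range of the other libraries. By limma, at an adjusted p under 0.05, 9643 genes differed between the states, which is 80.0% of those tested. Of these, 4513 were higher in primed ESCs (37.4% of tested genes) and 5130 lower (42.5%), so that 46.8% of the calls were rises. When every library was scaled to the same sum of listed genes, a choice made after the sums were seen, the median change of all genes moved from -0.05 to 0.10 and rises made up 57.1% of the calls. Because a call by the adjusted p alone covers most genes, a change of at least 1 (a doubling or halving of TPM + 1) was also required where stated below. This left 3355 genes (27.8%), 1954 of them higher (16.2%) and 1401 lower (11.6%), so that 58.2% were rises. The shares of all tested genes that rose or fell, with and without a change of at least 1, are the background for every list count below. A count near them is no result about its list. Among the 8294 genes with a mean of at least 5 TPM over the 10 libraries the balance was the other way, with 689 higher and 953 lower (42.0% rises).

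Both primed libraries lay on the same side of both naïve libraries for all 3355 of these genes, where 88.5% of tested genes had no overlap between the states (41.5% with primed higher and 47.0% with primed lower). For 3243 of them both primed libraries also lay outside the range of the other 8 libraries, against 65.7% of tested genes. The separate pairs of libraries, with no library in common, each changed by at least 1 in 2965 of the 3355 genes. The 3355 genes were chosen by their change in these same libraries. These counts therefore describe them and are no separate check of agreement. The median absolute difference between the primed libraries was 0.127 on the log2 scale and that between the naïve libraries 0.0555, while the median absolute change between the states was 0.55. The primed libraries thus agreed less closely with each other than the naïve libraries did, and 100 genes differed by 1 or more between them, against 10 between the naïve libraries.

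**Figure D1:**
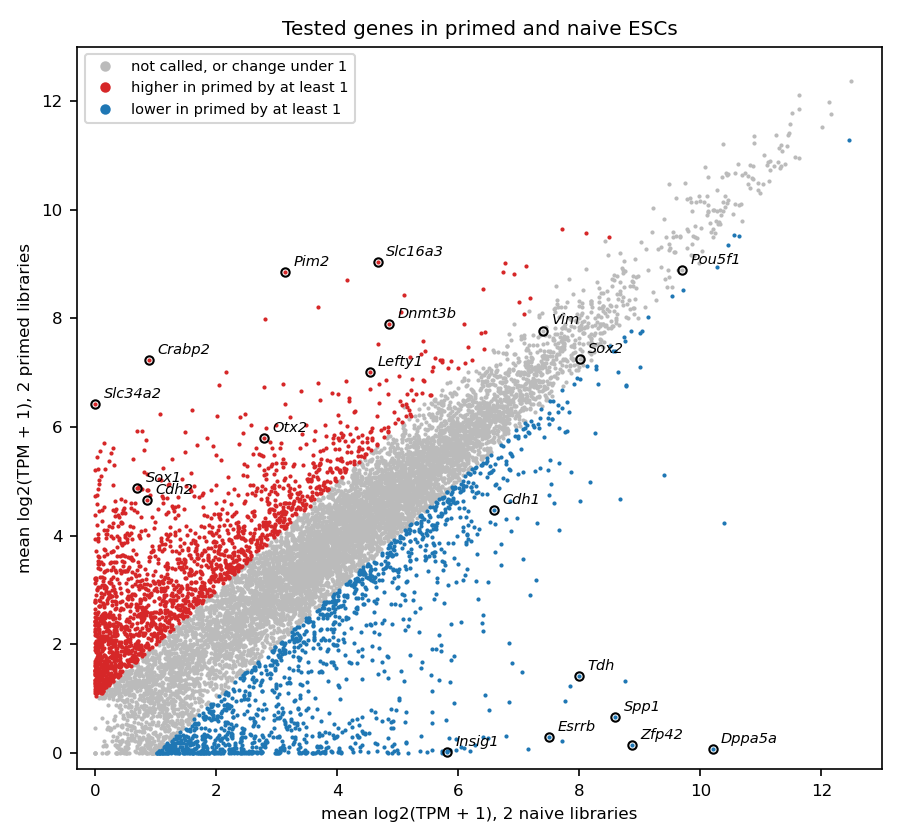
Each point is 1 of 12060 tested genes, at its mean log2(TPM + 1) over the 2 naïve libraries (x axis) and the 2 primed libraries (y axis). Red points are the 1954 genes called higher and blue points the 1401 called lower by at least 1, and circled genes are described in the text. Dppa5a, Zfp42 and Spp1 lie below 1 on the primed axis, and Slc34a2 and Crabp2 near 0 or 1 on the naïve axis.

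The naïve transcription factors fell together. All 13 of the list fell and 12 fell by at least 1, with a median change of -3.99. Zfp42 (Rex1), a zinc-finger protein used as a reporter of the naïve state, was at 474 and 458 TPM in the naïve libraries and at 0.024 and 0.196 TPM in the primed libraries, a log2 change of -8.72 ± 0.067 (adjusted p = 1.8e-12). Esrrb, an orphan nuclear receptor of the naïve network, was at 186 and 174 TPM in naïve and 0.236 and 0.214 TPM in primed ESCs (-7.20 ± 0.044). The values of Tfcp2l1, a grainyhead-like factor that acts downstream of LIF, were 109.7 and 109.9 TPM (naïve) and 0.277 and 0.211 TPM (primed; -6.48 ± 0.049). In these 3 genes the primed libraries were below 0.3 TPM and none of the other 8 libraries was below 100 TPM. Tbx3, a T-box factor, went from 87.4 and 80.5 to 0.331 and 0.113 TPM, and Klf4 from 121 and 113 to 2.78 and 1.59 TPM. Prdm14, which represses DNA methyltransferase genes in naïve cells, went from 15.4 and 14.8 to 0.016 and 0.014 TPM.

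Nanog, Klf2 and Klf5 stayed above 20 TPM in primed ESCs. Nanog was at 441 and 429 TPM in naïve and at 104 and 114 TPM in primed ESCs (-1.99 ± 0.062, adjusted p = 5.6e-09). Klf2, a Krüppel-like factor, was at 245 and 268 TPM (naïve) and 27.3 and 20.7 TPM (primed). Klf5, of the same family, was at 61.5 and 61.7 TPM (naïve) and 33.0 and 40.5 TPM (primed) and had the smallest change of the list (-0.74 ± 0.095). The groups did not overlap in any of the 13 genes. Over all tested genes 88.5% had no overlap, 47.0% with primed lower.

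Core pluripotency factors moved little by comparison. Of 7 members, 1 rose, 4 fell and Trim28, a corepressor of retroelements, fell by at least 1. Without primed replicate 1 there were 2 falls of that size, the other in Utf1 (-0.68 with all libraries and -1.10 without that one), and with quantile normalization none, with Trim28 at -0.92. Rises numbered 2 without either primed library and 3 with quantile normalization or an equal sum of listed genes. Pou5f1 was at 833 and 819 TPM in naïve and 517 and 431 TPM in primed ESCs (-0.81 ± 0.085, adjusted p = 1.9e-05). The values of its partner Sox2 were 262 and 248 TPM (naïve) and 138 and 167 TPM (primed; -0.74 ± 0.081). Sall4, a zinc-finger factor, was the member that rose, at 108 and 109 TPM against 87.6 and 88.3 TPM. Lin28a, an RNA-binding protein that blocks let-7 maturation, was at 140.1 and 143 TPM (naïve) and 161 and 135 TPM (primed), and Zfp281 at 44.9 and 46.5 TPM (naïve) and 46.7 and 54.9 TPM (primed), and neither passed the threshold.

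Most factors of the formative and primed states rose. Of 14 in the list, 10 rose (9 by at least 1) and 4 fell (3 by at least 1), with a median change of 2.12. Otx2, a homeodomain factor that directs Oct4 to new enhancers on exit from the naïve state, was at 5.71 and 6.10 TPM in naïve and 53.0 and 55.9 TPM in primed ESCs (3.01 ± 0.093, adjusted p = 5.5e-09). Zic2, a zinc-finger factor, was at 14.4 and 13.7 TPM (naïve) and 86.9 and 110.2 TPM (primed; 2.72 ± 0.11). Sox11 was at 4.37 and 4.75 TPM (naïve) and 79.1 and 71.2 TPM (primed), and Sox3, a SoxB1 factor like Sox2, at 2.61 and 2.12 TPM (naïve) and 17.8 and 16.3 TPM (primed). Both primed libraries exceeded both naïve libraries in each of these genes, as they did in 41.5% of all tested genes. Pou3f1 (Oct6), a POU factor of the epiblast after implantation, was lower in level, at 1.07 and 1.32 TPM (naïve) and 5.61 and 9.10 TPM (primed; 1.90 ± 0.17).

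Of the list, 4 members lie on chromosome 14 (Otx2, Zic2, Zic5 and Sall2). The 394 tested genes of that chromosome had a median change of 0.54 and 27.2% of them rose by at least 1. The part of this shift in the 4 changes, which ranged from 2.34 to 3.99, was not tested. The members that fell were Etv4, Etv5, Foxd3 and Grhl2. Etv5, an ETS factor and a transcriptional target of ERK, was at 129 and 121 TPM in naïve and at 43.9 and 26.2 TPM in primed ESCs.

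**Figure D2:**
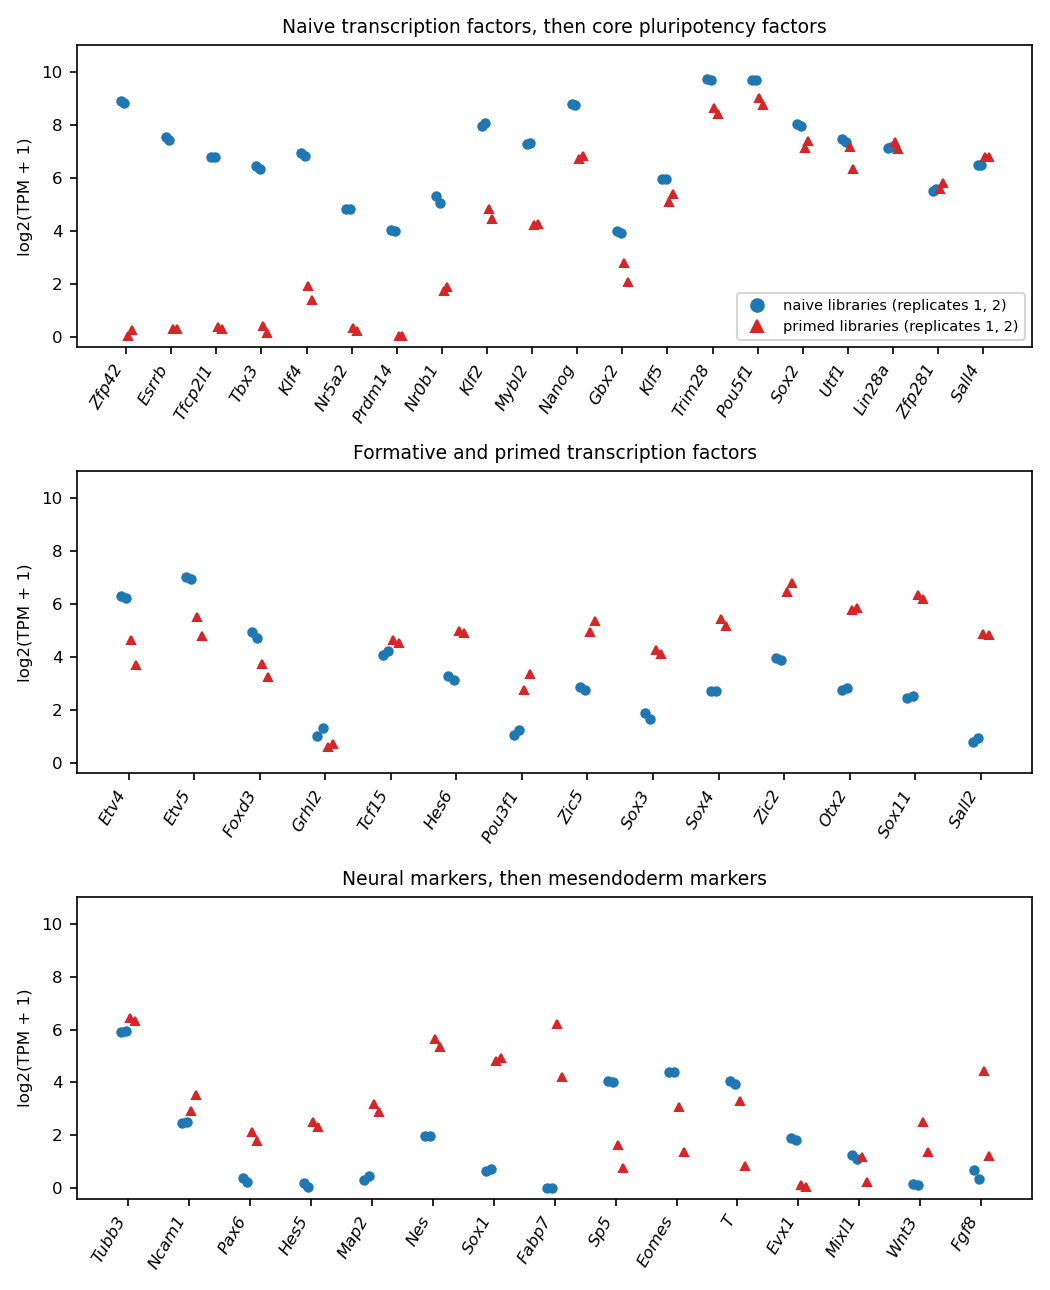
Values of log2(TPM + 1) in each of the 2 naïve (blue circles) and 2 primed libraries (red triangles), with 1 column per gene and genes ordered by their change within each list. The naïve factors from Zfp42 to Prdm14 lie near 0 or below 2 in primed ESCs, Pou5f1 and Sox2 stay high in both states, and the triangles of the mesendoderm markers T, Eomes and Fgf8 stand apart from each other.

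Stem cell markers outside these lists of factors fell as well. Of 17 members, 16 fell, all by at least 1, with a median of -5.51, and Mael did not pass. Dppa5a, an RNA-binding protein of pluripotent cells and germ cells, had the largest fall of all tested genes, from 1222 and 1134 TPM to 0.091 and 0 TPM (-10.14 ± 0.074). Dppa2 and Dppa4, paired DNA-binding proteins of the early embryo, went from 62.9 and 59.6 to 0.043 and 0.039 TPM and from 47.3 and 45.5 to 0.076 and 0 TPM. Spp1 (osteopontin), a secreted integrin ligand, went from 389 and 381 to 0.539 and 0.631 TPM. Alpl, the alkaline phosphatase used to stain ESC colonies, kept a level of 28.3 and 28.5 TPM against 103 and 99.6 TPM. Trh, the precursor of thyrotropin-releasing hormone, is no member of the list but was among the 20 largest falls, from 1360.1 and 1335 TPM to 33.1 and 9.36 TPM.

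The promoters of these genes were examined for the octamer core ATGCAAA, the sequence that POU factors such as Oct4 bind, in windows that RefSeq annotates on GRCm38.p6 from 250 bases before to 50 after each start. Promoters were matched by symbol for 9493 of the tested genes. The following stretches of 120 bases are shown because they contain octamer cores and belong to genes that moved in opposite directions, with the core in capitals on whichever strand it lies. Zfp42 (chr8:43307110-43307229, minus strand, bases -220 to -101 from the start) has 1 core. Nanog (chr6:122707369-122707488, plus strand, bases -120 to -1, from the first of its 2 RefSeq promoters) has 1. Pim2 (chrX:7878086-7878205, plus strand, bases -220 to -101), a serine/threonine kinase whose transcript rose strongly, has 3 cores, of which the outer ones start 78 bases apart.
Zfp42: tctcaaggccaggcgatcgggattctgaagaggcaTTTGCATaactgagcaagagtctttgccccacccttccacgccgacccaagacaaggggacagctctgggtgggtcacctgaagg
Nanog: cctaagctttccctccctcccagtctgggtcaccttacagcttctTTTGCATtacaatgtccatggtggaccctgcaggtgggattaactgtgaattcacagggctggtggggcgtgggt
Pim2: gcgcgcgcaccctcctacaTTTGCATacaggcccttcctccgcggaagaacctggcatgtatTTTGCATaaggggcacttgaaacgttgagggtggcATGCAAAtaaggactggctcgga

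The shares of promoters with a core lay close together. It was found on either strand in 4.48% of the 1987 promoters of genes that rose by at least 1, in 4.35% of the 1402 promoters of genes that fell, in 3.48% of all 12178 promoters of tested genes and in 4.63% of all 32851 promoters of the table. Only 4 of the 12178 promoters held 3 or more cores. Besides that of Pim2 they belong to Plppr2 (4 cores), which rose by at least 1, and Ly6g6d (3 cores), which fell by at least 1. The last is that of Cables2 (3 cores), which had no called change of at least 1. The response element of estrogen-related receptors, AAGGTCA, was in 4.28% of the promoters of falling genes and in 2.82% of those of rising genes, against 3.14% of all tested. The E-box CACGTG was in 10.7% and 6.74%, against 10.1%. The OTX element GGATTA was in 5.85% and 4.78%, against 5.50%, and the TATA box TATAAA in 7.70% and 8.51%, against 6.76%. These shares describe letters in a window and no test was made of them.

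DNA methylation enzymes changed in both directions. Of 9 members, 4 rose and 5 fell, and 3 and 4 of them did so by at least 1. Dnmt3b, a de novo methyltransferase, was at 27.5 and 28.3 TPM in naïve and 222 and 254 TPM in primed ESCs (3.04 ± 0.063, adjusted p = 5.2e-10), and Dnmt3a at 14.8 and 16.3 TPM (naïve) and 71.5 and 63.3 TPM (primed). Dnmt3l, their catalytically inactive cofactor, went the other way, from 208 and 211 to 0.209 and 0.115 TPM (-7.50 ± 0.065). Among the dioxygenases that oxidize 5-methylcytosine, Tet1 went from 123 and 126 to 21.5 and 17.0 TPM and Tet2 from 24.5 and 24.2 to 1.73 and 1.71 TPM, whereas Tet3 rose from 1.13 and 1.39 to 5.90 and 5.73 TPM. Uhrf1, which recruits the maintenance enzyme to hemimethylated DNA, fell from 242 and 237 to 107 and 112 TPM. Dnmt1, that maintenance enzyme, was at 65.1 and 64.1 TPM (naïve) and 52.9 and 56.0 TPM (primed), a log2 change of -0.24 that lost the call with an equal sum of listed genes (adjusted p = 0.24) and with quantile normalization (adjusted p = 0.68).

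CpG content was compared because the enzymes above act on that dinucleotide. The median promoter of genes that fell by at least 1 held 16 CpG in 300 bases, with quartiles of 7 and 25, against 19 (9 and 29) for those that rose and 21 (12 and 29) for all tested. The GC share was 59%, 62% and 61%. With a single promoter per gene the medians were 17, 21 and 21. The quartile ranges overlapped and no test was made. Dnmt3l and Dnmt3b, which moved in opposite directions, are shown as examples from either end, with every CG in capitals. The stretch of Dnmt3b (chr2:153649329-153649448, plus strand) holds 16 and that of Dnmt3l (chr10:78042167-78042286, plus strand, from the first of its 3 RefSeq promoters in the table) holds 3, in the 120 bases before the start.
Dnmt3b: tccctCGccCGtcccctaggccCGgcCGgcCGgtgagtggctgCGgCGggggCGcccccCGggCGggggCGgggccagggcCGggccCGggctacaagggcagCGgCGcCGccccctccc
Dnmt3l: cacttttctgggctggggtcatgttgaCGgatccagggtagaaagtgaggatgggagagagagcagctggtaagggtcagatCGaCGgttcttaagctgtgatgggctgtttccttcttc

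Markers of other cell types were examined because primed cultures can hold differentiating cells. In bulk libraries, more or fewer cells of a type and more or less RNA per cell cannot be told apart. All 8 tested neural markers rose, 6 by at least 1, with a median of 2.46. Sox1, an early marker of neuroectoderm, was at 0.575 and 0.661 TPM in naïve and 27.2 and 29.6 TPM in primed ESCs (4.18 ± 0.083, adjusted p = 4.4e-10). Nestin (Nes), an intermediate filament of neural progenitors, was at 2.95 and 2.98 TPM (naïve) and 48.6 and 39.2 TPM (primed), and Pax6 at 0.308 and 0.178 TPM (naïve) and 3.36 and 2.48 TPM (primed). Summed over the 10 listed markers, which include Tubb3 at 59.0 and 60.6 TPM in naïve ESCs, the level was 67.8 and 69.5 TPM in naïve and 262 TPM in primed replicate 1 and 189 TPM in primed replicate 2, so that the sum was higher in both primed libraries.

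Mesendoderm markers differed between the primed libraries, and of 7 tested 2 rose (1 without either naïve library) and 4 fell. T (Brachyury) was at 15.7 and 14.5 TPM in naïve ESCs, at 8.97 TPM in primed replicate 1 and at 0.786 TPM in primed replicate 2. Eomes was at 19.8 and 20.3, 7.44 and 1.61 TPM in the same order. The endoderm and organizer genes Cer1 (9.80 and 0.484 TPM in primed replicates 1 and 2), Lhx1 (5.16 and 0.338 TPM), Gsc (2.45 and 0.268 TPM) and Sox17 (3.04 and 0.303 TPM) reached 1 TPM in primed replicate 1 alone and were not tested. The summed level of the 12 mesendoderm markers was 56.4 and 54.7 TPM in naïve ESCs, 64.4 TPM in primed replicate 1 and 7.54 TPM in primed replicate 2. The part of such cells in the changes of the 2 libraries was not tested. Of 10 fibroblast markers 5 were tested, 3 rose and 1 fell, and the sum was 7.02 and 6.76 TPM in naïve and 11.1 and 17.7 TPM in primed ESCs. Among them Col1a1 and Col1a2 rose to 1.80 and 1.76 and to 4.18 and 4.84 TPM, while Dcn and Lum were listed at 0 in both primed libraries. Of 10 primitive endoderm markers 2 were tested and 1 rose (Dab2) and none fell (1 without primed replicate 1), with a sum of 2.05 and 2.00 TPM in naïve and 7.52 and 3.14 TPM in primed ESCs. Of 10 trophectoderm markers 6 were tested, 3 rose and 2 fell, with sums of 39.7 and 39.1 TPM and of 44.7 and 30.8 TPM, and Elf5 and Hand1 were below 0.1 TPM in all 4 libraries. No 2-cell-like marker reached the filter.

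Fgf5, the usual marker of the primed epiblast, was at 0 and 0.100 TPM in naïve ESCs but at 10.7 TPM in primed replicate 1 and 0.447 TPM in primed replicate 2, and so did not reach the filter. Fgf5 was above naïve in both primed libraries, but at a low level in replicate 2. Of the 6 markers by which primed ESCs were checked, the other 5 (Otx2, Pou3f1, Zic2, Dnmt3b and Sox3) were tested and higher in both libraries. All 7 naïve markers were lower in both. Among all tested genes, 41.5% had both primed libraries above both naïve libraries and 47.0% had both below.

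Several genes of the Nodal pathway divided the primed libraries. Lefty1, a secreted Nodal antagonist that Nodal itself induces, was at 22.0 and 22.2 TPM in naïve ESCs, 477 TPM in primed replicate 1 and 34.0 TPM in primed replicate 2, the widest gap of all tested genes. Its log2 change was 2.48 ± 0.91 (adjusted p = 0.031), and was 0.60 without primed replicate 1, 4.37 without primed replicate 2, and no longer called without either naïve library (adjusted p = 0.091 and 0.090). Lefty2 was at 238 and 225 TPM in the naïve and 79.2 and 15.4 TPM in the primed libraries, and Nodal at 48.1 and 46.0 TPM (naïve) and 29.2 and 6.02 TPM (primed). Without primed replicate 1 and without primed replicate 2, the change of Lefty2 was -3.82 and -1.53 and that of Nodal -2.78 and -0.67. Thus Lefty2 and Nodal were below naïve in both primed libraries, and lowest in replicate 2. Fgf8, which is expressed in the primitive streak, was at 20.6 TPM in primed replicate 1 against 1.36 TPM in primed replicate 2, and its change of 2.30 was 0.71 without primed replicate 1 and 3.90 without primed replicate 2. It lost the call without either naïve library (adjusted p = 0.054 and 0.086). The change of T (-1.93 ± 0.60) was -3.17 without primed replicate 1 and -0.69 without primed replicate 2, and it lost the call without naïve replicate 1 (adjusted p = 0.058). Eomes (-2.17 ± 0.41) changed by -3.01 and -1.32. Of the 100 genes that differed by at least 1 between the primed libraries, 79 were higher in replicate 1. The 21 higher in replicate 2 included Tfap2c (1.78 and 5.97 TPM), Eras (5.64 and 13.9 TPM), a Ras protein of ESCs, and the chemokine Cxcl12 (14.6 and 35.8 TPM).

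**Figure D3:**
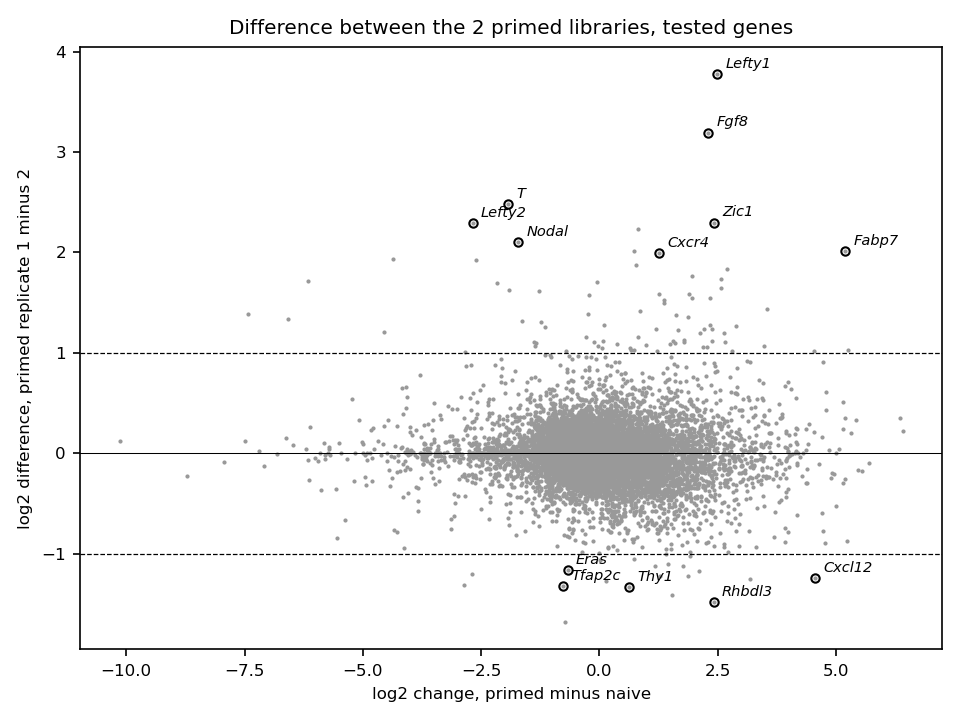
Each point is 1 of 12060 tested genes, with the log2 change between primed and naïve ESCs on the x axis and the log2 difference of primed replicate 1 minus replicate 2 on the y axis. Dashed lines mark a difference of 1. Most genes lie between the lines over the whole range of change, and Lefty1, Fgf8, T, Lefty2 and Nodal are among those above 2.

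Glycolytic genes rose on balance but not as a block. Of 22 tested, 12 rose (7 by at least 1) and 6 fell (3 by at least 1), with a median of 0.43 against -0.05 for all tested genes. Slc16a3 (MCT4), the lactate exporter, had the largest change, from 24.7 and 24.2 TPM to 530.0 and 518 TPM (4.37 ± 0.30, adjusted p = 1.0e-06). The glucose transporter Slc2a1 (GLUT1) was at 108 and 107 TPM (naïve) and 381 and 710.2 TPM (primed), higher in primed replicate 2 than in replicate 1 but far above naïve in both. Isoforms of the same enzyme moved apart. Among the phosphofructokinases, Pfkl went from 23.6 and 21.0 to 97.9 and 109 TPM and Pfkm from 7.66 and 7.67 to 31.8 and 31.6 TPM, while the platelet form Pfkp went from 44.2 and 45.7 to 9.05 and 14.1 TPM. Hexokinase 2 (Hk2) fell from 99.998 and 100.1 to 45.3 and 39.2 TPM, and Hk1 was at 9.67 and 10.6 TPM (naïve) and 7.50 and 10.6 TPM (primed) and did not pass. Of the most abundant enzymes, Gapdh fell from 4208 and 4072 to 2998 and 2925 TPM, Eno1 rose from 782 and 755 to 1184 and 1193 TPM, and pyruvate kinase Pkm, at 1538 and 1507 TPM (naïve) and 1639 and 1630.3 TPM (primed), did not pass. Aldoa was listed in several rows and was left out.

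In the mitochondrion, nuclear-encoded subunits and assembly factors of cytochrome c oxidase mostly fell, with 14 of 22 lower and 3 higher, 4 of them lower by at least 1 (2 with quantile normalization), and a median of -0.49. Cox7a1 went from 33.8 and 33.4 to 10.5 and 9.40 TPM, Cox7b from 226 and 217 to 86.2 and 88.8 TPM, and Cox5a from 389 and 379 to 172 and 164 TPM. Cox7c, at 871 and 633 TPM (naïve) and 725 and 810.2 TPM (primed), overlapped between the states. TCA cycle genes were divided, with 7 of 22 higher and 11 lower, beside 37.4% and 42.5% of all tested genes. This balance turned to 11 and 5 with quantile normalization and to 11 and 6 with an equal sum of listed genes. A single change reached 1 (none with quantile normalization), that of Pdha1, the E1 subunit of pyruvate dehydrogenase, from 162 and 162 to 69.2 and 73.3 TPM (-1.17 ± 0.041). Pdha1 is X-linked, as is Cox7b, and the 430 tested X-linked genes had a median of -0.28.

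Most genes of sterol and fatty acid synthesis were higher in primed ESCs. Of 20 genes of cholesterol synthesis and its regulation, 17 rose (10 by at least 1) and 2 fell, with a median of 0.91. Hmgcs1, which makes HMG-CoA, was at 107 and 105 TPM in naïve and 474 and 456 TPM in primed ESCs (2.12 ± 0.042, adjusted p = 4.4e-10). Msmo1, a methyl sterol oxidase, was at 81.7 and 85.9 TPM (naïve) and 388 and 353 TPM (primed). The members that fell were Ebp and Insig1. Insig1, which retains SREBP in the endoplasmic reticulum when sterol is abundant, went from 56.5 and 54.3 TPM to 0 and 0.015 TPM (-5.81 ± 0.050) and lay between 32.2 and 57.2 TPM in the other 8 libraries.

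Of 16 genes of fatty acid synthesis, 12 rose (4 by at least 1) and 3 fell, with a median of 0.70. The rises of at least 1 numbered 7 without primed replicate 2 and with quantile normalization, median-ratio scaling or an equal sum of listed genes. Fasn, the fatty acid synthase, was at 140.2 and 143 TPM (naïve) and 318 and 248 TPM (primed), and the desaturase Fads2 at 40.3 and 42.6 TPM (naïve) and 129 and 104.4 TPM (primed). The stearoyl-CoA desaturases moved apart, with Scd2 at 358 and 352 TPM (naïve) and 604 and 549 TPM (primed) and Scd1 at 59.2 and 55.4 TPM (naïve) and 2.77 and 0.632 TPM (primed; -4.55 ± 0.29). Fatty acid oxidation was mixed, with 10 of 19 higher and 8 lower, beside 37.4% and 42.5% of all tested genes. Carnitine palmitoyltransferase 1b (Cpt1b), of the muscle type, rose from 0.306 and 0.374 to 6.56 and 11.96 TPM, whereas the liver type Cpt1a fell from 21.6 and 20.5 to 16.1 and 15.8 TPM and the carnitine carrier Slc25a20 from 48.7 and 45.9 to 10.97 and 11.9 TPM. Fabp5 and Fabp7, fatty acid binding proteins, were among the 20 largest rises. Fabp5 was at 5.63 and 6.28 TPM (naïve) and 288 and 226 TPM (primed). Fabp7, also a neural marker, was listed at 0 in both naïve libraries and at 73.0 and 17.3 TPM in the primed libraries.

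Of 19 tested glycogen genes, 11 were higher and 4 lower, with a median of 0.54 against -0.05 for all tested genes. Rises of at least 1 numbered 4, or 7 with an equal sum of listed genes and 2 at a mean of at least 5 TPM. Over all tested genes 37.4% were higher, 42.5% lower and 16.2% higher by at least 1. Phosphoglucomutase Pgm1, which interconverts glucose 1- and 6-phosphate, was at 2.20 and 2.23 TPM in naïve and 43.8 and 56.4 TPM in primed ESCs (3.98 ± 0.12, adjusted p = 4.8e-09). Pygb, the brain form of glycogen phosphorylase, was at 3.86 and 3.82 TPM (naïve) and 14.2 and 18.7 TPM (primed), and the branching enzyme Gbe1 at 1.596 and 1.68 TPM (naïve) and 7.73 and 6.51 TPM (primed). Glycogen synthase Gys1 rose little, from 11.5 and 10.8 to 13.6 and 14.3 TPM (0.30 ± 0.060). Genes of both breakdown and synthesis are thus among those that rose. Nhlrc1 (malin), a ubiquitin ligase of the laforin complex, was at 2.65 and 2.696 TPM in the naïve libraries and listed at 0 in both primed libraries.

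Of the catalytic subunits of AMPK, α2 rose and α1 changed little. Prkaa2 (α2) was at 2.38 and 2.41 TPM in naïve and 8.30 and 9.38 TPM in primed ESCs (1.53 ± 0.081, adjusted p = 1.7e-07), and Prkaa1 (α1) at 15.5 and 16.6 TPM (naïve) and 13.4 and 13.7 TPM (primed; -0.23 ± 0.068). The call of Prkaa1 was lost without naïve replicate 2 (adjusted p = 0.096) and with an equal sum of listed genes (adjusted p = 0.49). Camkk2, a calcium-dependent kinase upstream of AMPK, fell from 16.6 and 18.9 to 4.12 and 3.71 TPM, and Stk11 (LKB1), the other upstream kinase, from 48.2 and 49.0 to 40.3 and 43.8 TPM, a call that was lost with an equal sum of listed genes (adjusted p = 0.61) and with quantile normalization (adjusted p = 0.86). In all, 3 of 10 tested members rose and 4 fell (5 and 2 with an equal sum of listed genes), with 1 change of at least 1 in each direction. These counts are near the shares of all tested genes, of which 37.4% rose and 42.5% fell. Changes of at least 1 made up 16.2% and 11.6%.

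Threonine dehydrogenase (Tdh), which supplies mouse ESCs with glycine and acetyl-CoA, went from 259.8 and 245 to 3.22 and 0.669 TPM (-6.58 ± 0.32). Amt, the aminomethyltransferase of the glycine cleavage system, fell from 48.0 and 49.8 to 7.59 and 8.04 TPM, while Gldc, of the same system, rose from 15.6 and 15.1 to 29.7 and 32.3 TPM. Over threonine, serine and one-carbon metabolism 6 of 19 rose and 9 fell, near the 37.4% and 42.5% of all tested genes.

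**Figure D4:**
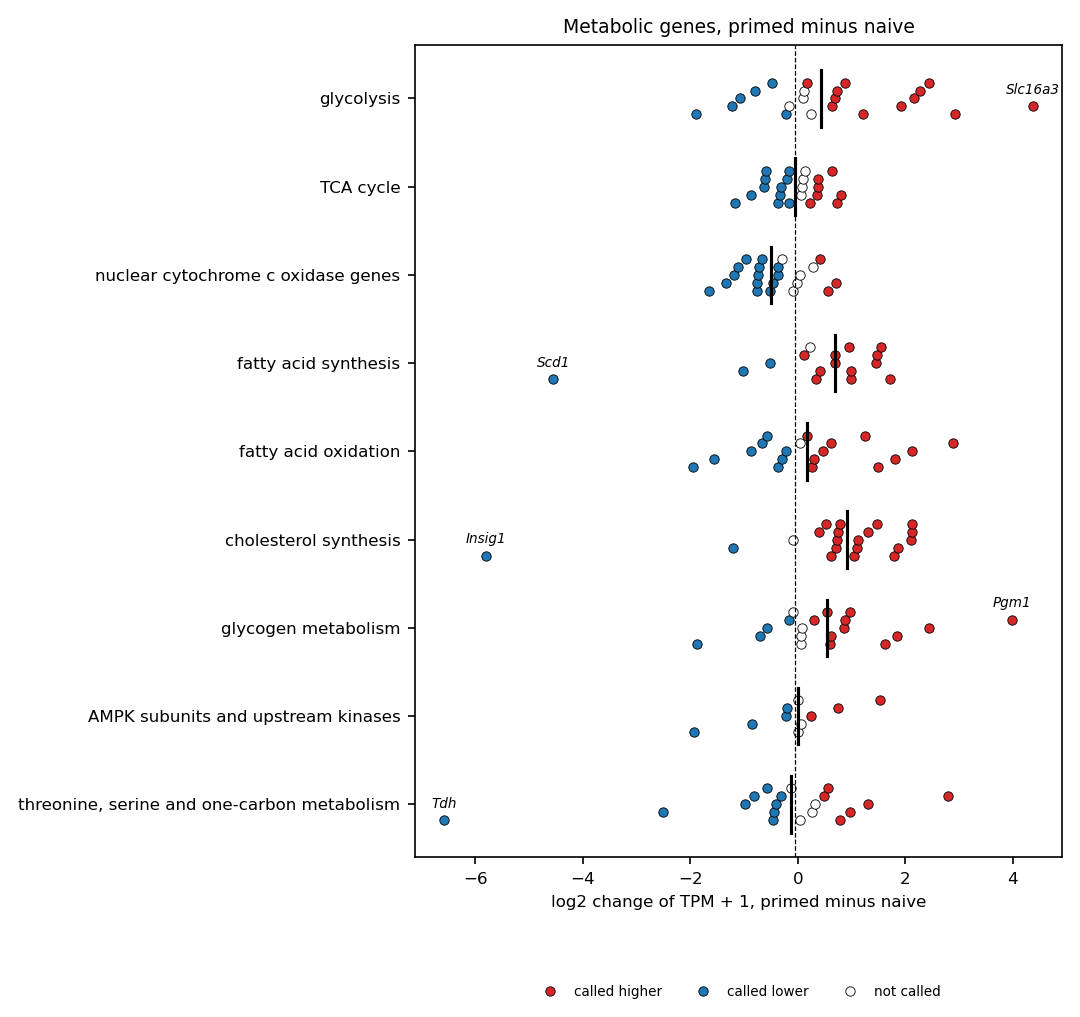
Log2 change between primed and naïve ESCs (x axis) of each tested gene of 9 metabolic lists (rows), red where called higher, blue where called lower and white where not called. Thick bars are the medians of the lists and the dashed line is the median of all tested genes (-0.05). Cholesterol synthesis lies to the right apart from Insig1 and Ebp, and cytochrome c oxidase genes lie mostly to the left.

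Of the 8 signalling lists, the LIF and STAT3 pathway had the largest share of falls, with 11 of 13 lower (9 by at least 1), a median of -1.20 and Pim2 as its only rise. The naïve medium contained LIF and the primed medium did not. The receptor Lifr went from 25.8 and 26.9 to 1.76 and 1.93 TPM (-3.27 ± 0.057), its partner Il6st (gp130) from 14.5 and 15.8 to 5.65 and 6.41 TPM, and Stat3 from 37.4 and 37.4 to 5.998 and 7.66 TPM. The feedback inhibitor Socs3, a STAT3 target, went from 55.5 and 59.7 to 1.82 and 2.82 TPM. The Pim kinases, which are induced by cytokines, did not move together. Pim1 fell from 48.0 and 44.5 to 2.82 and 2.7 TPM and Pim3 from 109 and 110.3 to 18.3 and 19.2 TPM, whereas Pim2, whose promoter with 3 octamer cores is shown above, rose from 8.00 and 7.62 to 444 and 476 TPM (5.71 ± 0.11, adjusted p = 3.4e-10). Its level in the other 8 libraries was between 4.64 and 10.2 TPM.

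In the FGF pathway 3 receptors rose and the ESC ligand Fgf4 fell. Of 11 tested ligands and receptors, 6 rose and 2 fell, all by at least 1, beside 16.2% and 11.6% of all tested genes. Rises of at least 1 numbered 5 with the 4 naïve and primed libraries alone and 1 at a mean of at least 5 TPM. Falls of that size numbered 2 in both. Fgfr2 went from 0.105 and 0.048 to 19.08 and 23.7 TPM (4.37 ± 0.10), Fgfr1 from 34.4 and 34.6 to 79.0 and 84.9 TPM, and Fgfr3 from 0 and 0.018 to 3.40 and 5.55 TPM. Fgf4, the ligand by which ESCs signal to each other, went from 80.5 and 88.1 to 5.26 and 4.34 TPM (-3.88 ± 0.075, adjusted p = 3.9e-10), and Fgf10 from 9.26 and 9.27 TPM to 0 in both primed libraries. The MEK inhibitor, which blocks ERK activation, was in the naïve medium alone. Of the transcripts induced by ERK, 5 of 17 were higher and 9 lower (6 by at least 1), with a median of -0.54. Over all tested genes 37.4% were higher and 42.5% lower (11.6% by at least 1). Spry4, a feedback inhibitor, fell from 59.0 and 60.9 to 1.49 and 3.81 TPM and the phosphatase Dusp6 from 15.3 and 13.7 to 6.79 and 4.66 TPM, while the phosphatase Dusp4 rose from 0.849 and 1.01 to 14.0 and 10.9 TPM. Fos rose with a wide spread, from 2.80 and 1.58 to 12.6 and 3.74 TPM (1.36 ± 0.39). The change was 0.60 without primed replicate 1 and 2.12 without primed replicate 2, and lost its call without naïve replicate 2 (adjusted p = 0.075).

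Nodal and Activin genes were divided, with 7 of 15 higher and 7 lower, beside 37.4% and 42.5% of all tested genes. Tdgf1 (Cripto), the coreceptor for Nodal, went from 431 and 426 to 3.05 and 0.543 TPM (-7.43 ± 0.33), and the inhibitory Smad7 from 34.9 and 31.98 to 2.26 and 0.896 TPM. Follistatin (Fst), which binds Activin, rose from 7.08 and 6.74 to 39.4 and 32.8 TPM, and Skil (SnoN), a repressor that Activin induces, from 6.62 and 6.91 to 45.2 and 42.0 TPM. Activin was in the primed medium alone. Among BMP genes 10 of 15 rose (5 by at least 1) and 3 fell. The ligand Bmp4 fell from 23.3 and 21.7 to 0.817 and 0.621 TPM (-3.77 ± 0.091) and the receptor Bmpr1a rose from 16.0 and 15.7 to 33.2 and 31.9 TPM. Both lie on chromosome 14, whose median shift is given above. The target genes Id2 and Id3, inhibitors of bHLH factors, moved apart, with Id2 at 5.68 and 6.19 TPM (naïve) and 91.3 and 124 TPM (primed) and Id3 at 101 and 83.7 TPM (naïve) and 40.1 and 48.3 TPM (primed).

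Of 23 Wnt genes 9 rose and 10 fell, beside 37.4% and 42.5% of all tested genes. The GSK3 inhibitor, which activates the pathway, was in the naïve medium alone, and transcriptional targets moved both ways. Cdx1 went from 29.6 and 29.0 to 0.532 and 0.216 TPM (-4.47 ± 0.094), Notum, a secreted Wnt deacylase, from 15.3 and 13.5 to 0.402 and 0.478 TPM, and Sp5 from 15.5 and 15.1 to 2.12 and 0.709 TPM. The target Axin2 changed less, from 17.4 and 17.2 to 14.4 and 11.8 TPM (-0.38 ± 0.084, and -0.25 without primed replicate 2), and Lef1, a nuclear mediator that is also a target, rose from 1.08 and 0.883 to 10.2 and 8.24 TPM, as did the feedback inhibitor Nkd1, from 0.731 and 0.757 to 5.16 and 4.57 TPM. Receptors and ligands included some of the largest rises. Fzd2 went from 0.744 and 0.843 to 49.6 and 57.0 TPM (4.92 ± 0.098), Fzd7 from 6.18 and 6.86 to 35.3 and 41.2 TPM, and the ligand Wnt8a, which is found among the 20 largest rises, from 0.255 and 0.083 to 48.4 and 33.8 TPM. Fzd10, of the same receptor family, fell from 27.1 and 27.4 to 0 and 0.033 TPM.

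Notch genes rose in 11 of 14 cases (8 by at least 1) and fell in 3, with a median of 1.26. The ligand Dll1 went from 0.010 and 0.085 to 29.4 and 34.1 TPM (4.96 ± 0.10, adjusted p = 4.9e-10), the glycosyltransferase Lfng from 0.470 and 0.214 to 17.5 and 18.8 TPM and Notch3 from 0.972 and 1.11 to 26.2 and 17.8 TPM. Hes5, a Notch target that is also on the neural list, rose from 0.153 and 0.037 to 4.70 and 4.01 TPM. The target Hes1 and the DNA-binding partner Rbpj fell, from 35.6 and 37.2 to 15.3 and 10.1 TPM and from 67.5 and 66.1 to 23.1 and 20.3 TPM.

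Retinoid and IGF genes had the largest upward median among the signalling lists (1.85), with 14 of 19 higher, 13 of them by at least 1, and 2 lower. Crabp2, which carries retinoic acid to its nuclear receptors, rose from 0.914 and 0.797 to 169 and 133 TPM (6.35 ± 0.16, adjusted p = 1.9e-09). Crabp1 went from 11.18 and 12.4 to 419.9 and 208 TPM, and Cyp26a1, which degrades retinoic acid and is induced by it, from 0.024 and 0.046 to 11.4 and 20.5 TPM. The IGF-binding proteins Igfbp2, Igfbp3, Igfbp4 and Igfbp5 all rose. The most abundant, Igfbp2, went from 137 and 139 to 502 and 495 TPM. The imprinted pair moved apart: Igf2 rose from 0.745 and 0.836 to 5.61 and 9.02 TPM, and Igf2r, the receptor that clears it, fell from 14.0 and 14.6 to 0.259 and 0.258 TPM (-3.60 ± 0.061).

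E-cadherin fell and N-cadherin rose between the states. E-cadherin (Cdh1), which joins epithelial cells, was at 93.3 and 96.4 TPM in naïve and 20.3 and 22.0 TPM in primed ESCs (-2.11 ± 0.048, adjusted p = 9.1e-10), and N-cadherin (Cdh2) at 0.800 and 0.818 TPM (naïve) and 28.8 and 20.1 TPM (primed; 3.79 ± 0.14). In primed ESCs the TPM of both transcripts overlapped. Of 13 cadherins, desmosomal proteins and catenins 7 rose (5 by at least 1) and 4 fell (2 by at least 1). The desmosomal genes Dsp and Dsc2 rose, Dsp from 0.814 and 0.891 to 5.01 and 7.94 TPM, whereas plakoglobin (Jup) fell from 65.7 and 64.5 to 24.7 and 30.0 TPM. β-catenin (Ctnnb1) rose from 208 and 203 to 294 and 295 TPM.

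Most other epithelial genes rose. Of 15 genes of tight junctions and epithelia, 11 rose (6 by at least 1) and 4 fell (3 by at least 1), with a median of 0.74. At a mean of at least 5 TPM, which leaves fewer to test, 2 rose and 2 fell by at least 1. Of all tested genes 37.4% rose and 42.5% fell, 16.2% and 11.6% by at least 1. Epcam rose from 7.18 and 7.54 to 50.9 and 51.3 TPM (2.64 ± 0.076) and the claudin Cldn6 from 1.02 and 0.874 to 20.1 and 13.6 TPM, while Cldn4 fell from 23.4 and 22.4 to 1.08 and 4.20 TPM. Among regulators of the epithelial to mesenchymal transition, Zeb2 rose from 0.064 and 0.078 to 10.7 and 10.1 TPM, Snai1 fell from 6.04 and 6.005 to 4.37 and 2.42 TPM, and the mesenchymal gene vimentin (Vim) rose from 171 and 165 to 253 and 188 TPM. The rise of Vim was 0.16 without primed replicate 1, where it was no longer called (adjusted p = 0.054), and 0.59 without primed replicate 2, and it was also lost without naïve replicate 2 (adjusted p = 0.068). The fall of Snai1 (-0.71) was -0.39 without primed replicate 2. Fibronectin (Fn1) fell from 131 and 136 to 34.5 and 35.9 TPM. The list had 4 rises and 5 falls among 9 members.

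Integrins and matrix genes moved both ways, as did all tested genes (37.4% higher and 42.5% lower, and 16.2% and 11.6% by at least 1). Of 11 integrins 6 rose (4 by at least 1) and 4 fell (3 by at least 1). Itgb5 rose from 2.78 and 2.89 to 40.1 and 60.8 TPM (3.72 ± 0.18) and Itgb1, the subunit common to most laminin and collagen receptors, from 67.9 and 68.6 to 144 and 144 TPM, while Itgb7 fell from 5.40 and 5.50 to 0.397 and 0.426 TPM. Of 17 basement membrane genes 9 rose (6 by at least 1) and 7 fell (4 by at least 1). Lama1, a chain of laminin-111, fell from 9.05 and 8.98 to 0.552 and 0.301 TPM and nidogen 1 (Nid1) from 20.0 and 20.5 to 2.19 and 2.73 TPM. The collagen chaperone Serpinh1 (HSP47) rose from 17.0 and 16.9 to 450.2 and 389 TPM (4.55 ± 0.082), and the lysyl oxidase Loxl2 from 0.357 and 0.297 to 11.9 and 10.9 TPM. Has2, which makes hyaluronan, was among the 20 largest rises, from 0.079 and 0.136 to 48.1 and 54.5 TPM. Primed ESCs were plated on Matrigel and naïve ESCs on gelatin.

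Ephrins and Eph receptors, which mediate contact signalling, rose in 9 of 15 cases (7 by at least 1) and fell in 3. Efnb2 rose from 0.648 and 0.664 to 31.6 and 26.6 TPM (4.18 ± 0.089) and Epha7 from 0.655 and 0.655 to 17.3 and 13.1 TPM. Epha2 fell from 46.9 and 48.6 to 21.7 and 6.37 TPM, and its change of -1.92 was -1.11 without primed replicate 2. Its level differed between the primed libraries, as did that of Epha1 (8.88 and 1.44 TPM), which did not pass the threshold.

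**Figure D5:**
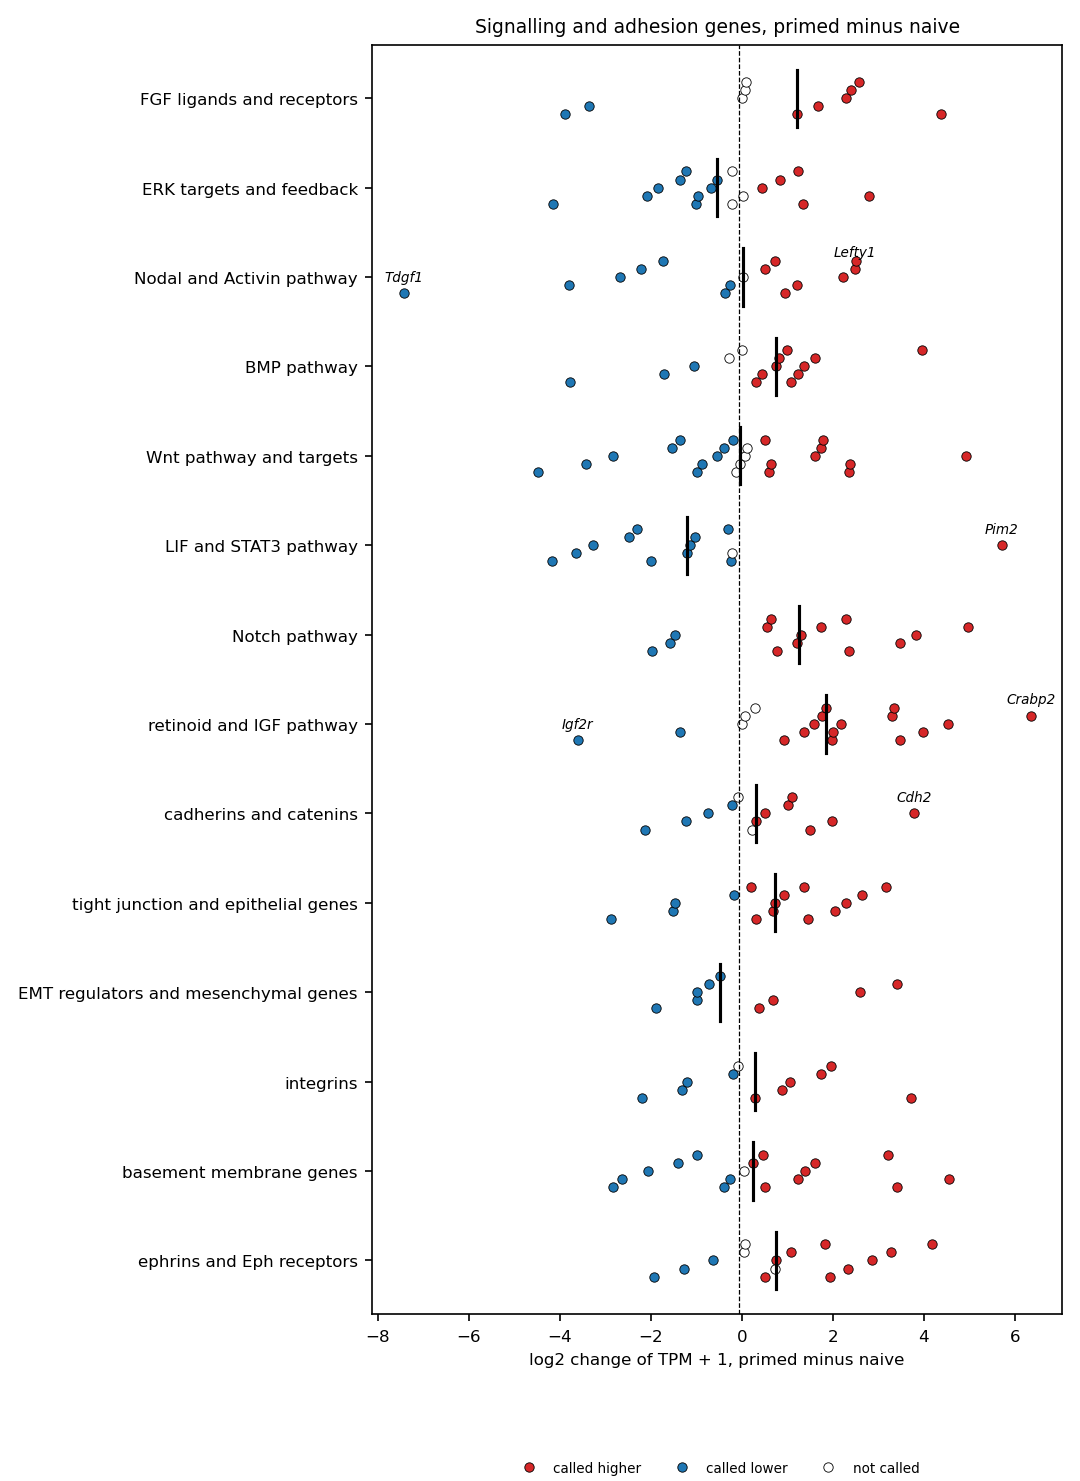
Log2 change between primed and naïve ESCs (x axis) of each tested gene of 8 signalling and 6 adhesion lists (rows), with colours, bars and dashed line as in the plot of metabolic genes. The LIF and STAT3 pathway lies to the left except for Pim2, and the retinoid and IGF pathway lies to the right except for Igf2r and Rarg among the called genes.

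The largest rises included genes outside these lists. Slc34a2, a sodium-phosphate cotransporter, was listed at 0 in both naïve libraries and at 91.0 and 78.2 TPM in primed ESCs (6.42 ± 0.13, adjusted p = 5.0e-10), and reached at most 0.341 TPM in the other 8 libraries. Enpp3, an ectonucleotidase, went from 0.048 and 0.066 to 43.3 and 48.6 TPM, and Ptn, the growth factor pleiotrophin, from 0.175 and 0.202 to 64.3 and 30.9 TPM. Irx3, a homeodomain factor of the neural plate, rose from 0.071 and 0.060 to 27.4 and 39.9 TPM. The 20 largest rises were at 17.3 TPM or more in both primed libraries and at 8.00 TPM or less in both naïve libraries.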

How the data were processed

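RNA sequencing libraries of 5 J1 lines (2 each) were analysed. The deposited values are TPM per gene, which the authors computed with RSEM (1.3.3) after trimming with Trim Galore (0.6.6), FastQC and alignment with STAR (2.7.9a in the submitters' processing notes). The methods name GRCm39 and the notes list GRCm38 and GRCh38, and the library kit and sequencer also differ between these sources. TPM keeps no read depth, so depth is unknown and no counting interval is given.

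A gene was kept if 2 or more of the 10 libraries reached 1 TPM, and log2(TPM + 1) was fitted with limma (3.58.1, R 4.3.3), with 1 mean per line over all 10 libraries. The prior variance followed the mean expression, and p-values were adjusted by Benjamini-Hochberg over 12060 genes. The log2 scale with a pseudocount of 1 understates changes of low genes. With 2 libraries against 2, the smallest two-sided exact permutation p for a single gene is 0.333, so no such test was made. Promoters were matched by symbol to RefSeq windows (GRCm38.p6) and chromosomes to the GENCODE annotation. Tables were made with Python (3.11.15) and pandas (2.3.3).

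Named genes are members of the gene lists, the 20 largest rises and falls with at least 5 TPM in the higher state and no overlap, the 10 genes most divided between the primed libraries in each direction, and the largest rise and fall of each gene family. The comparison and the lists were chosen with earlier results of these data known. Alternatives changed the pseudocount (0.1), the filter (none, or a mean of at least 5 TPM), the normalization (quantile, median ratio, equal sum), the variance model, the libraries in the fit and the fold threshold, and added the replicate number as a block. The numbers were taken not to pair the libraries, since the deviations of same-numbered naïve and primed libraries correlated at 0.038. Genes listed under the same symbol more than once (Aldoa, Gcat) were left out of the lists, and mitochondrially encoded genes were not analysed here. A further 4 genes are not reported here and enter no list count.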

Additional observations from a re-analysis of the deposited data

How the results depend on the processing

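The counts of genes that differed, rose and fell (9643, 4513 and 5130) stayed within 1.5 times their value under every alternative except a log2 change of at least 1 (3355, 1954 and 1401) and a filter at a mean of 5 TPM, under which 2454 rose. Without each library in turn they were 8805 to 9616, 4173 to 4533 and 4632 to 5101. The replicate block gave 9573, 4483 and 5090. Of the distinct list members, 391 were called, 368 to 401 without each library in turn, 387 with the replicate block and 231 with a change of at least 1. The 100 genes dividing the primed libraries became 305 with a pseudocount of 0.1 and 42 with a mean of at least 5 TPM. Of the 285 named genes called with a change of at least 1, 279 kept direction and call under each alternative in which they were tested, and 87 of the 285 were not tested at a mean of at least 5 TPM. The others were Cxcr4, Fgf8, Fos, Lefty1, Nodal and T, each no longer called with the 4 naïve and primed libraries alone (adjusted p by limma 0.14, 0.10, 0.070, 0.12, 0.073 and 0.084).

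Direction turned for 15 named genes whose change was called in the reported fit or under the alternative, none of them with a called change of 1 or more in the reported fit, and for 31 others called in neither. Without either primed library the called ones ranged from -0.18 to 0.23 in Ccnd1, -0.28 to 1.73 in Epha1, -0.15 to 0.24 in Lama5, -0.23 to 0.38 in Rara and -0.49 to 0.78 in Apbb3, with the lower value without primed replicate 1 except in Apbb3. With quantile normalization they were Bmp7 (-0.23), Cs (0.090), Ctnna1 (0.010), Etfb (0.021), Fgfrl1 (-0.24), Gsk3a (0.024), Mael (-0.32), Sdhd (0.097) and Slc16a1 (0.018). With an equal sum of listed genes, chosen after seeing the data, they were Cs (0.0075), Gsk3a (0.011), Prkab1 (0.17) and Sdhd (0.018). At a mean of at least 5 TPM, which leaves fewer members to test, the number of rises of at least 1 fell by over 1.5 times in 20 of the 27 gene lists that had any, and the number of such falls in 4 of 30. The cause of the other differences was not tested. Depth is unknown, so low genes carry an error that these tables do not show. The promoter and library-agreement alternatives were also chosen after seeing the data.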

Other observations

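Gene families were also counted by symbol, and some of their members are in the lists above. Among all tested genes 80.0% were called and 27.8% with a change of at least 1, so a call in most members of a family is near the background. Of 18 tested protocadherins, which are cell-surface molecules of neural tissue, 13 rose (12 by at least 1) and 4 fell, and Pcdh17 went from 0.021 and 0.049 TPM in naïve to 13.3 and 9.64 TPM in primed ESCs. Of 10 Sox factors 8 rose and 2 fell. Of 14 Klf factors 3 rose and 8 fell, with the largest called rise in Klf12, from 1.58 and 1.26 to 5.49 and 6.01 TPM. Of 16 Hox genes, which pattern the body axis, 5 rose and 11 fell. Hoxb2 went from 0.027 and 0.052 to 19.0 and 6.41 TPM and Hoxc12 from 7.34 and 6.58 TPM to 0 in both primed libraries. All 5 tested Rhox genes, an X-linked homeobox cluster, fell, and Rhox5 went from 23.7 and 23.7 to 0.069 and 0.197 TPM. Glutathione transferases moved both ways, with 8 of 17 higher and 9 lower. Gstm5 went from 2.11 and 1.94 to 82.9 and 73.8 TPM and Gstp2 from 217 and 216 to 0.943 and 0.953 TPM. Of 75 cytosolic ribosomal protein genes 13 rose and 44 fell, but only 1 and 2 of them by at least 1. Near-identical copies in these families can share reads, so single members are uncertain.

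Insig1 lies on chromosome 5 among genes whose values were looked up after its fall was seen. On one side of it, En2 went from 5.22 and 5.07 to 0.851 and 0.134 TPM and Cnpy1, beyond it, from 49.0 and 51.8 to 3.91 and 0.290 TPM, while Rbm33, farther still, was at 20.7 and 20.7 TPM in naïve and 19.5 and 18.8 TPM in primed ESCs. On the other side, Htr5a was below 1 TPM in all 4 libraries and Paxip1 went from 22.3 and 21.6 to 14.1 and 12.3 TPM.

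Chromosome medians of the change were not equal. That of chromosome 14 was 0.54 and that of chromosome 11 was 0.30, while those of chromosomes 19 and 6 were -0.45 and -0.39. Set against the AKO, GKO and DKO libraries in place of the naïve ones, the primed libraries gave chromosome 14 medians of 0.56, -0.01 and 0.13. In the same order the medians were 0.33, 0.40 and 0.37 for chromosome 11, -0.45, -0.02 and -0.16 for chromosome 19 and -0.38, -0.56 and -0.32 for chromosome 6. These comparisons share the primed libraries. The medians are given as values and their cause was not tested.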
